A study of Mus musculus with 9 samples.

Results

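The nucleolus is the part of the nucleus in which ribosomes are made. There, RNA polymerase I transcribes the precursor of the ribosomal RNAs, small nucleolar ribonucleoproteins (snoRNPs) guide its chemical modification and cleavage, and a long series of assembly factors folds the pieces into the small and the large ribosomal subunit. In T cells the pathway is known to be switched on after stimulation of the antigen receptor, when cells grow before they divide. The 34 genes described here encode nucleolar proteins of this pathway. They were taken by their symbols from the 41388 gene rows of the RNA-Seq table, and each symbol occurred in 1 row. According to their textbook roles they were placed in 5 groups, with 7 scaffold, chaperone and remodelling proteins, 6 core proteins of the snoRNPs, 3 subunits of RNA polymerase I, 9 factors of the small subunit and 9 factors of the large subunit.

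The cells were murine Tc17 cells, a subset of CD8+ T cells that secretes IL-17, and the comparison asked how dimethyl fumarate (DMF), a drug that depletes cellular glutathione, alters their transcripts and whether added glutathione (GSH) prevents this. Naive CD8+ T cells were sorted from lymph nodes and spleens of C57BL/6 mice aged 8 to 12 weeks and were primed for 2 days under Tc17 conditions with antibodies to CD3 and CD28, IL-2, TGF-β, IL-6 and anti-IFN-γ in all groups. In Ctrl the solvent DMSO was added at 0.2%, in DMF the drug at 20 µM, and in DMF + GSH the same dose of the drug and 50 µM GSH. The methods name DMSO in the cultures with DMF for another assay and do not say so for RNA-Seq, and whether the solvent differed between DMF and Ctrl was not tested. Each group had 3 libraries, numbered as replicates 1 to 3, of which replicate 1 was prepared in batch 1 and replicates 2 and 3 in batch 2. The study speaks in general of independent biological replicates, and a figure legend describes values calculated from these RNA-Seq data as combined experiments. Neither its text nor the labels say whether the libraries came from separate animals, so that p-values measure only the spread between these libraries.

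The values are normalized counts, that is, reads per gene divided by a size factor of the library, and they are relative to the library rather than to the cell. Recovered depth was 7671772 to 14511926 reads per library, with Ctrl replicate 3 the shallowest. The summed CD8+ T cell markers lay at 23810.1 to 28419 normalized counts in Ctrl, at 24538 to 28760 with DMF and at 23855 to 30102 with DMF + GSH, and the groups overlapped. Within this sum the genes differed in direction, with means of 10146 in Ctrl and 12601 with DMF for Cd8a, but of 4779 and 4070.0 for Cd3e, 3514 and 2412 for Cd3g and 2712 and 2134 for Cd3d. The 5 type 17 markers together lay at 4740.2 to 6799 in Ctrl, at 1271 to 2843 with DMF and at 4203 to 6884 with DMF + GSH, so that the range with DMF did not reach those of the other groups. Summed B cell markers stayed at or below 92.0, CD4 markers at or below 8.31 and NK cell markers at or below 4.16, while 2 of 3 erythroid markers were at 0. The 4 myeloid markers in the table together lay at 71.7 to 264 in Ctrl, at 54.0 to 70.2 with DMF and at 80.7 to 88.3 with DMF + GSH. The part of cell composition in the results was not tested. In bulk libraries, more RNA of a gene per cell and more cells that express it cannot be told apart.

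Nearly the whole set was higher with DMF. Of the 34 genes, 33 were higher with DMF than in Ctrl at an adjusted p (p adj) under 0.05 in limma, 0 were lower and 1, the polymerase subunit gene Polr1c, did not pass, whereas 14.6% of the 11599 genes tested were called higher. The median log2 fold change (log2FC) of the 34 was 0.69, with a range from 0.14 to 0.93, beside a median of 0.01 over all genes tested. All 34 were higher with DMF in each of the 3 replicate numbers, which was the case for 34.3% of all genes. In 33 of the 34, the lowest DMF library lay above the highest Ctrl library, as it did in 21.6% of the genes tested. The median log2FC was 0.85 in replicate number 1, which is batch 1, and 0.64 and 0.62 in replicate numbers 2 and 3. Batch 2 alone gave 0.63. The number of calls depended on single libraries in the fit with the batch term. Leaving out Ctrl replicate 1 gave 8, beside 2.85% of all genes, DMF replicate 3 gave 16, beside 4.01%, and DMF replicate 1 gave 0, beside 0.362%, where 33 members still had an unadjusted p under 0.05. In those fits all 34 genes kept the higher level with DMF. With all 9 libraries, 4811 of the 11599 genes tested had an unadjusted p under 0.05. The number of all genes without DMF replicate 1 is not given here. When the model held the replicate number instead of the batch (replicate block), 33 members were called with all 9 libraries, beside 23.7% of all genes, and 33 or 34 without any 1 library, beside at least 18.5%.

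**Figure D1:**
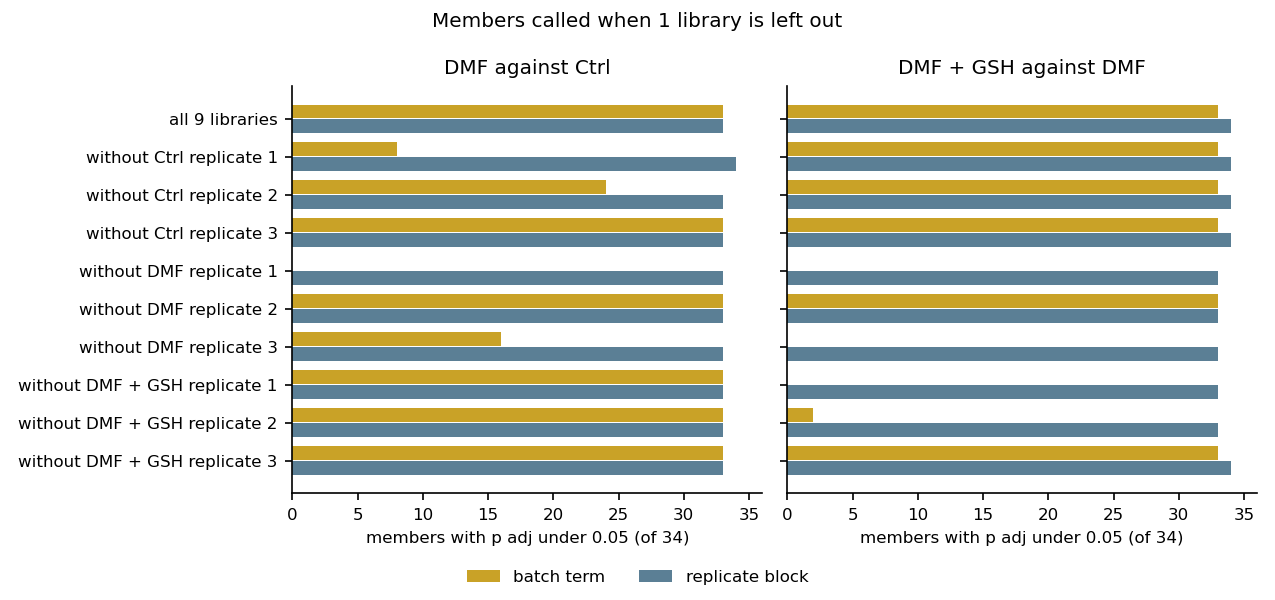
Number of the 34 nucleolar genes with a p adj under 0.05 (x axis) with all 9 libraries and without each library in turn (y axis), for the fit with the batch term and the fit with the replicate block. Bars of the batch term drop to 0 without DMF replicate 1 in both comparisons, whereas those of the replicate block stay at 33 or 34.

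At the stricter threshold of the study, which asks for a log2FC of at least 0.75 in size and a p adj below 0.01, 8 members were higher with DMF, beside 1.22% of all genes. These were Ncl, Nolc1, Mybbp1a, Nhp2, Polr1b, Rrp9, Nop2 and Nop16. With the replicate block 12 members passed, the additional ones being Gnl3, Rrp12, Rrs1 and Noc2l, beside 2.53% of all genes. This number ranged from 6 without DMF replicate 1, beside 1.66%, to 17 without DMF replicate 3, beside 2.93%. DESeq2 on the recovered reads, the tool of the study, also gave 12, beside 1.79%, as did limma without a minimum count (0.665%), whereas a fit of the 6 libraries of the comparison alone gave 1, beside 0.198%. With the batch term the number was 0 without Ctrl replicate 1, Ctrl replicate 2, DMF replicate 1, DMF replicate 3 or DMF + GSH replicate 1, beside 0% to 0.224% of all genes, while leaving out Ctrl replicate 3 gave 21, beside 2.51%, and leaving out DMF replicate 2 gave 22, beside 2.42%. Together the 34 genes took 0.834% ± 0.110 of the normalized counts of a library in Ctrl (SD, n = 3), 1.32% ± 0.135 with DMF and 0.854% ± 0.137 with DMF + GSH. Ncl alone accounted for 0.225%, 0.375% and 0.237%, and the other members without Ncl for 0.609% ± 0.0754, 0.943% ± 0.0938 and 0.617% ± 0.0985.

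**Figure D2:**
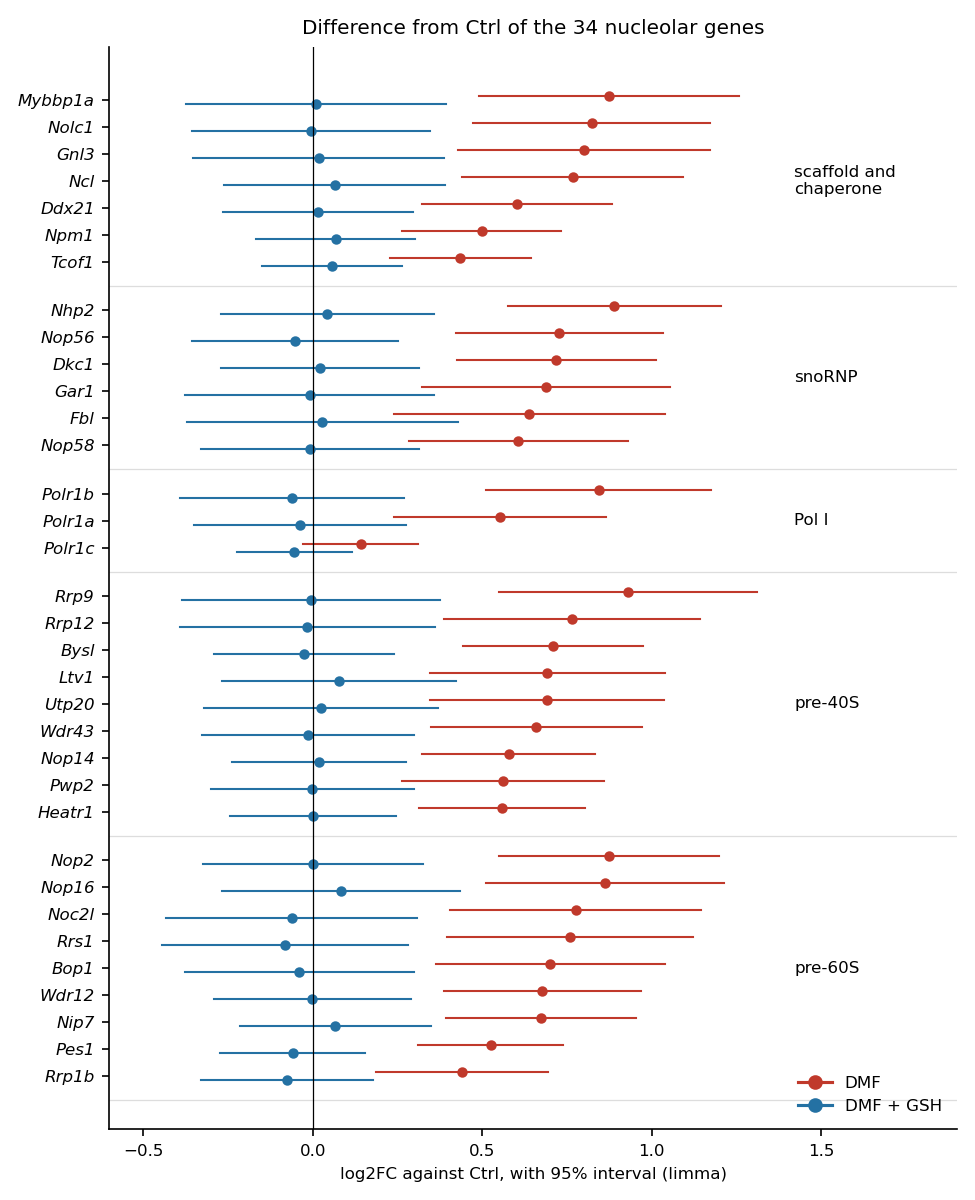
Differences of the 34 nucleolar genes from Ctrl on the log2 scale (x axis), with 95% intervals from limma, for DMF and for DMF + GSH, with the genes (y axis) ordered by role and size. Every point for DMF lies to the right of 0, between 0.14 and 0.93, and its interval reaches 0 for Polr1c alone, while every interval for DMF + GSH covers 0.

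The 7 scaffold, chaperone and remodelling proteins all had calls of a higher level with DMF, at a median log2FC of 0.77. Ncl (ENSMUSG00000026234) encodes nucleolin, an abundant RNA-binding protein of the nucleolus, and lies on the reverse strand of chromosome 1 of GRCm38 from 86344719 to 86359400. It stood at 22384, 21905 and 28881 normalized counts in Ctrl replicates 1, 2 and 3, at 41079.6, 36250.3 and 46800.5 with DMF and at 23407, 22758 and 30441 with DMF + GSH. Each DMF library thus exceeded all 6 others, and replicate 3 was the highest of every group. The log2FC of Ncl with DMF was 0.77 (limma p adj = 0.00781, SE 0.146). Npm1, on chromosome 11 from 33152287 to 33163206, encodes nucleophosmin, a histone and ribosome chaperone. Its libraries were at 9088, 9317 and 10720.5 in Ctrl, at 13221, 12712 and 15209.5 with DMF and at 9648, 9254 and 11713 with DMF + GSH. The DMF libraries again did not overlap with the others, at a smaller log2FC of 0.50 (limma p adj = 0.0106, SE 0.105).

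Mybbp1a, which encodes a Myb-binding protein that resides in the nucleolus, had the largest difference of this group. Its libraries were at 4874, 4679 and 6676 in Ctrl, at 10006, 8364 and 11187 with DMF and at 4646, 4864 and 6877 with DMF + GSH, for a log2FC with DMF of 0.87 (limma p adj = 0.00850, SE 0.171). Nolc1 encodes a chaperone of the snoRNPs that shuttles between the nucleolus and the cytoplasm. It was at 3029.5, 2862 and 3967 in Ctrl, at 5773, 4998 and 6595 with DMF and at 2762, 3032 and 4065 with DMF + GSH, a log2FC of 0.82 with DMF (limma p adj = 0.00790). The smallest difference of the group was that of Tcof1, which encodes treacle, a cofactor of ribosomal DNA transcription. Its libraries were at 3340.3, 3455 and 3911 in Ctrl, at 4987, 4415 and 5071 with DMF and at 3333, 3673 and 4152 with DMF + GSH, a log2FC of 0.44 with DMF (limma p adj = 0.0109). For Mybbp1a, Nolc1 and Tcof1 the lowest DMF library lay above the highest library of either other group. Gnl3, the gene of the GTPase nucleostemin, and Ddx21, that of an RNA helicase, had log2FCs of 0.80 and 0.60.

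All 6 genes of snoRNP core proteins had such calls too, at a median log2FC of 0.70. The box C/D particles, which methylate ribosomal RNA on the ribose, contain the methyltransferase fibrillarin (Fbl) and the scaffold proteins of Nop56 and Nop58. The box H/ACA particles, which convert uridine to pseudouridine, contain the pseudouridine synthase of Dkc1 with Gar1 and Nhp2. Nhp2, on the forward strand of chromosome 11 from 51619735 to 51623714, was at 1168, 1095 and 1385 normalized counts in Ctrl, at 2204, 2121 and 2411 with DMF and at 1087, 1105 and 1613 with DMF + GSH. Its log2FC with DMF, 0.89 (limma p adj = 0.00567, SE 0.141), was the largest of the group and had the lowest p adj of the 34. Fbl was at lower counts, at 456, 305 and 422 in Ctrl, at 604, 564 and 652 with DMF and at 331, 374 and 503 with DMF + GSH. Its Ctrl libraries did not share the order seen in most members, as replicate 1 rather than replicate 3 was the highest. The log2FC of Fbl was 0.64 (limma p adj = 0.0265, SE 0.179), the highest p adj among the 33 genes called. Nop58 was at 3027, 2857 and 3652 in Ctrl, at 5027, 4188 and 5301 with DMF and at 2870.4, 2780.4 and 3890.3 with DMF + GSH, a log2FC of 0.61 with DMF (limma p adj = 0.0154). Nop56, Dkc1 and Gar1 had log2FCs of 0.73, 0.72 and 0.69, so that genes of both kinds of particle rose.

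**Figure D3:**
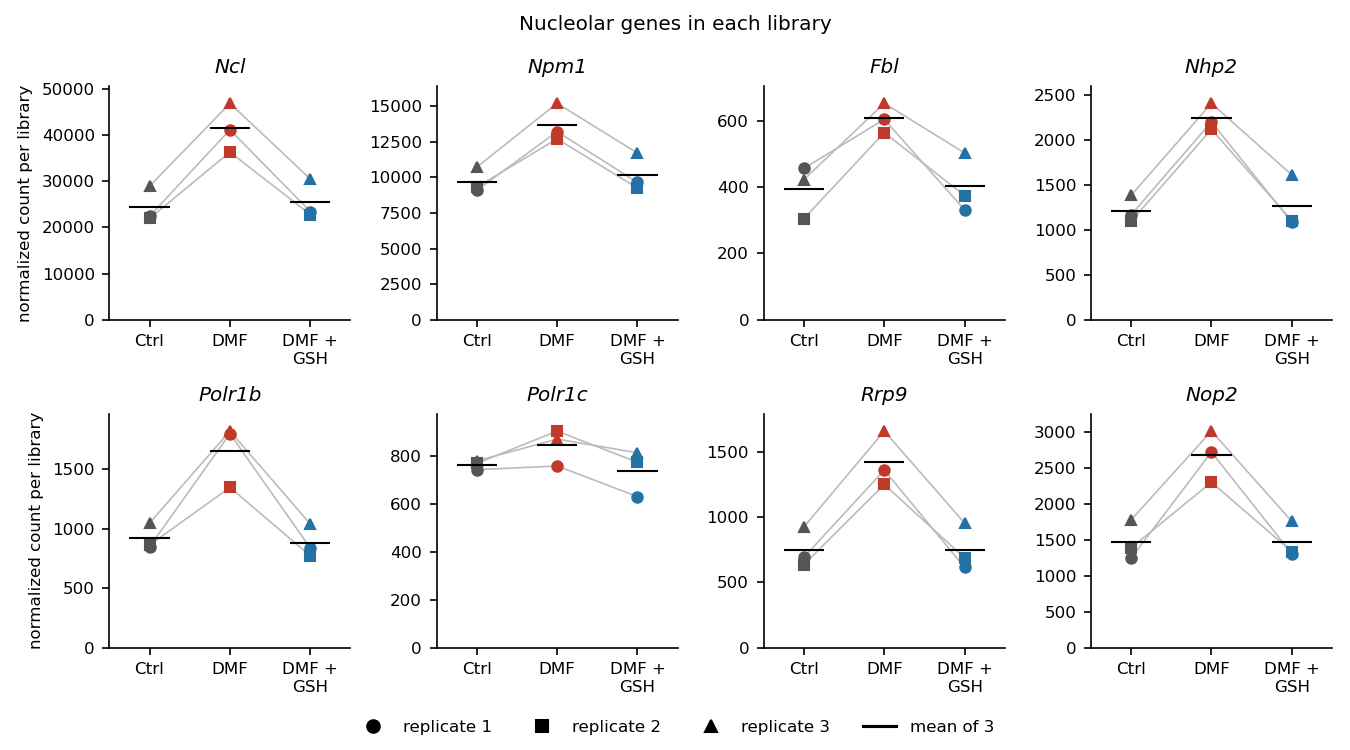
Normalized counts (y axis, from 0) of 8 nucleolar genes in each of the 9 libraries, by group (x axis), with marks for the replicate numbers, grey lines that join libraries of the same number and bars at the means of 3. The lines peak at DMF in each panel, and the libraries of DMF and Ctrl overlap for Polr1c alone, where DMF replicate 1 at 759.6 lies below Ctrl replicates 2 and 3.

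Of the 3 subunit genes of RNA polymerase I, 2 were called higher with DMF, at log2FCs of 0.84 and 0.55, and Polr1c did not pass. Polr1a and Polr1b encode the largest and the second largest subunit, which form the catalytic centre and are particular to this polymerase. Polr1b, on chromosome 2 from 129100995 to 129126594, was at 847, 862 and 1047 normalized counts in Ctrl, at 1799.6, 1347 and 1821 with DMF and at 837, 771 and 1039 with DMF + GSH, a log2FC of 0.84 with DMF (limma p adj = 0.00667, SE 0.148). Polr1a, on chromosome 6 from 71909053 to 71984935, was at 1409, 1348 and 1715 in Ctrl, at 2334, 1800.3 and 2448 with DMF and at 1350.0, 1336 and 1671 with DMF + GSH, a log2FC of 0.55 (limma p adj = 0.0187, SE 0.140). In both genes DMF replicate 2 was the lowest DMF library and still exceeded every library of the other groups. Polr1c, on the reverse strand of chromosome 17 from 46243920 to 46248054, encodes a subunit that RNA polymerase III also contains. It was at 744, 770.1 and 781 in Ctrl, at 759.6, 906 and 872 with DMF and at 632, 775 and 815 with DMF + GSH. The groups overlapped, and the log2FC of 0.14 (limma p adj = 0.187, SE 0.0760) did not pass, nor did it with the replicate block (p adj = 0.111). The 95% interval of this difference ran from -0.03 to 0.31. The difference between Polr1c and the other subunits was not tested.

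Factors of the small subunit included proteins of the processome that forms on the nascent transcript (Heatr1, Utp20, Pwp2, Wdr43, Nop14), the U3 snoRNP protein of Rrp9, and the later-acting Bysl, Ltv1 and Rrp12. All 9 were called higher with DMF, and their log2FCs lay between 0.56 and 0.93 around a median of 0.69. Rrp9, on the forward strand of chromosome 9 from 106475963 to 106485424, had the largest difference of all 34 members. It was at 691, 634 and 923 normalized counts in Ctrl, at 1358, 1248 and 1657 with DMF and at 613, 685 and 952 with DMF + GSH, a log2FC of 0.93 (limma p adj = 0.00722, SE 0.170). Heatr1 had both the highest counts and the smallest log2FC of this group. Its libraries were at 2267, 2226 and 2574 in Ctrl, at 2995 to 3739.7 with DMF and at 2186 to 2641 with DMF + GSH, which gave a log2FC of 0.56 with DMF (limma p adj = 0.00847, SE 0.109). For Rrp9 and Heatr1 alike, the DMF libraries lay above all others. Bysl, which encodes bystin, had a log2FC of 0.71 with DMF (limma p adj = 0.00640), and 9.37% of its exon bases lie opposite those of Ccnd3, whose mean was 2508 normalized counts.

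All 9 factors of the large subunit were called higher with DMF as well, and their log2FCs lay between 0.44 and 0.87 around a median of 0.70. Nop2, which encodes a methyltransferase of the large ribosomal RNA, lies on the forward strand of chromosome 6 from 125131909 to 125144753. It was at 1244, 1389 and 1778 normalized counts in Ctrl, at 2724, 2304 and 3017 with DMF and at 1307, 1336 and 1758 with DMF + GSH, a log2FC of 0.87 (limma p adj = 0.00640, SE 0.146). Nop16 was at 613, 619 and 833 in Ctrl, at 1217, 1096 and 1425 with DMF and at 591, 683 and 931 with DMF + GSH, a log2FC of 0.86 (limma p adj = 0.00722). Noc2l was at 1896 to 2746 in Ctrl, at 3413 to 4222 with DMF and at 1835 to 2725 with DMF + GSH, a log2FC of 0.78 (limma p adj = 0.0109). In each of these 3 genes the DMF libraries were clear of the rest. Of the exon bases of Noc2l, 20.9% lie opposite those of Samd11, whose mean was 7.39 normalized counts, and the sources used here do not state the strand setting of the counting. The PeBoW complex, required for the maturation of the large ribosomal RNAs, is made of the products of Pes1, Bop1 and Wdr12, which had log2FCs of 0.52, 0.70 and 0.68. Rrs1, which acts in the incorporation of the 5S particle, and Nip7 had log2FCs of 0.76 and 0.67. Rrp1b was at 1564, 1620.1 and 2025 in Ctrl, at 2357, 2104 and 2580.2 with DMF and at 1526, 1549 and 1856 with DMF + GSH. The DMF libraries lay above all others here too, and the log2FC of 0.44 (limma p adj = 0.0201) was the smallest of this group.

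Replicates within a group differed in a way the members shared. Replicate 3 was the highest library for 33 members in Ctrl, 33 with DMF and 34 with DMF + GSH, whereas it was the highest for 39.9%, 35.8% and 36.8% of all genes tested. The median deviation of the 34 members from their group means in replicate 3 was 0.21 on the log2 scale in Ctrl, 0.15 with DMF and 0.27 with DMF + GSH. For the 33 members called, Ctrl replicate 3 nevertheless lay below every DMF library.

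Addition of GSH to DMF was accompanied by lower levels of the same set than with DMF alone. Between DMF + GSH and DMF, which shares its DMF libraries with the comparison above, 33 of the 34 genes were called lower in limma, beside 12.4% of all genes, and 0 were called higher, beside 9.99%. The median log2FC was -0.69, with a range from -0.94 for Rrp9 to -0.20 for Polr1c, beside -0.002 over all genes tested. All 34 were lower with DMF + GSH in each of the 3 replicate numbers, as were 33.4% of all genes. The medians of the 34 by number were -0.85, -0.63 and -0.58, and batch 2 alone gave -0.60. In 33 members the lowest DMF library lay above the highest DMF + GSH library, as in 20.5% of all genes. With the replicate block all 34 were called lower, beside 21.6% of all genes, since Polr1c passed there (p adj = 0.0316, against 0.0883 with the batch term, limma). The calls with the batch term again rested on single libraries, with 0 members called when DMF replicate 1, DMF replicate 3 or DMF + GSH replicate 1 was left out, beside 0.0604%, 0.431% and 0.0431% of all genes, although 33, 33 and 32 had an unadjusted p under 0.05. Without DMF + GSH replicate 2 it was 2 members, beside 0.647%. All 34 stayed lower in each of those fits, and the replicate block called 33 or 34 without any 1 library, beside 16.2% to 21.9% of all genes. With all 9 libraries and the batch term, 4392 of the 11599 genes tested had an unadjusted p under 0.05. Such numbers of all genes without 1 library are not given here.

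At the threshold of the study, 0 members passed between DMF + GSH and DMF in limma with the batch term, beside 0.276% of all genes. All 34 had an unadjusted p under 0.05, as did 4392 of the 11599 genes tested. DESeq2 on the recovered reads gave 12, beside 1.59%, and limma without a minimum count gave 12 as well, beside 0.522%, while the 6 libraries of the comparison fitted alone gave 0, beside 0.0259%. Leaving out Ctrl replicate 3 gave 11, beside 1.09%, leaving out DMF replicate 2 gave 20, beside 2.03%, and leaving out DMF + GSH replicate 3 gave 22, beside 2.14%. With the replicate block 12 members passed, beside 2.41% of all genes, and these included Rrp9, Polr1b, Nop2 and Nhp2, with log2FCs of -0.94, -0.91, -0.87 and -0.85. The 12 became 7 without DMF replicate 1, beside 1.31%, and 7 without DMF + GSH replicate 1, beside 1.70%. They were 12 to 15 without any other library, beside 2.35% to 2.72%. In the groups, the median log2FC was -0.70 for scaffold and chaperone proteins, -0.70 for snoRNP proteins, -0.59 for polymerase subunits, -0.67 for factors of the small subunit and -0.74 for those of the large subunit.

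Between DMF + GSH and Ctrl, no member differed by the test. In limma 0 of the 34 passed a p adj under 0.05, beside 0% of all genes tested. An unadjusted p under 0.05 was found for 0 of the 34 and for only 222 of the 11599 genes tested. The replicate block, edgeR and DESeq2 likewise called 0 members. The log2FC ranged from -0.08 for Rrs1 to 0.08 for Nop16, with a median of -0.001. The libraries of the 2 groups overlapped for all 34 genes, and the share of all genes with such an overlap is not given here. By replicate number the medians were -0.04, -0.02 and 0.04. The direction of the set depended on single libraries in the fit with the batch term. Without DMF + GSH replicate 3 all 34 were lower, at a median of -0.13, and without Ctrl replicate 3, 32 were higher, at a median of 0.10. With the replicate block 27 were lower in the former case and 16 higher in the latter. With the batch term, the 95% intervals of the single genes ran from -0.45 for the lower bound of Rrs1 to 0.43 for the upper bound of Nop16, so that this fit did not exclude differences of up to this size for these genes. The replicate block gave narrower intervals, for example -0.21 to 0.26 for Fbl and -0.05 to 0.18 for Ncl. With the batch term these 2 were -0.37 to 0.43 and -0.26 to 0.39. Nolc1 may serve as an example, with means of 3286 ± 596 in Ctrl and 3286 ± 688 with DMF + GSH (SD, n = 3), as may Rrp9, with 749 ± 153 and 750.0 ± 179.

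Further genes of the pathway were listed by role, with earlier results of these data known. Of 129 other ribosome biogenesis genes tested, 109 had a call of a higher level with DMF in limma and 0 of a lower one, around a median log2FC of 0.50, beside 14.6% and 13.3% of all genes. With the replicate block 117 were higher and 2 lower, beside 23.7% and 21.4%. The 2 were Exosc8 of the exosome and the large subunit factor gene Gltscr2, with log2FCs of -0.19 and -0.20, and they were named after their values were seen. Of 44 factors of the small subunit 40 were higher, among them Noc4l (log2FC 0.80) and Pno1 (0.73), and of 44 factors of the large subunit 39 were higher, among them Mrto4 (0.87) and Rrp15 (0.86). Of 11 snoRNP assembly factors 9 were higher, led by Naf1 (0.89) and Nop10 (0.80), and of 13 genes of the RNA exosome, which trims the precursors, 10 were higher, led by Dis3 (0.58) and Exosc2 (0.56). Of 17 other subunits and factors of RNA polymerase I, 11 were higher, with Cd3eap (0.85) and Polr2f (0.70) the largest. The 109 became 22 when Ctrl replicate 1 was left out, 53 for Ctrl replicate 2, 2 for DMF replicate 1 and 43 for DMF replicate 3, beside 2.85%, 5.25%, 0.362% and 4.01% of all genes, and with the replicate block the 117 stayed at 110 or more. With GSH added to DMF, 99 of the 129 were called lower and 1 higher than with DMF alone, beside 12.4% and 9.99% of all genes, and the 99 became 0 when DMF replicate 1 or DMF + GSH replicate 1 was left out, 2 for DMF replicate 3 and 5 for DMF + GSH replicate 2, where at most 0.647% of all genes were called lower. With the replicate block 115 of the 129 were lower and 2 higher in this comparison, beside 2506 and 2308 of the 11599 genes tested. Between DMF + GSH and Ctrl 0 of the 129 were called.

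**Figure D4:**
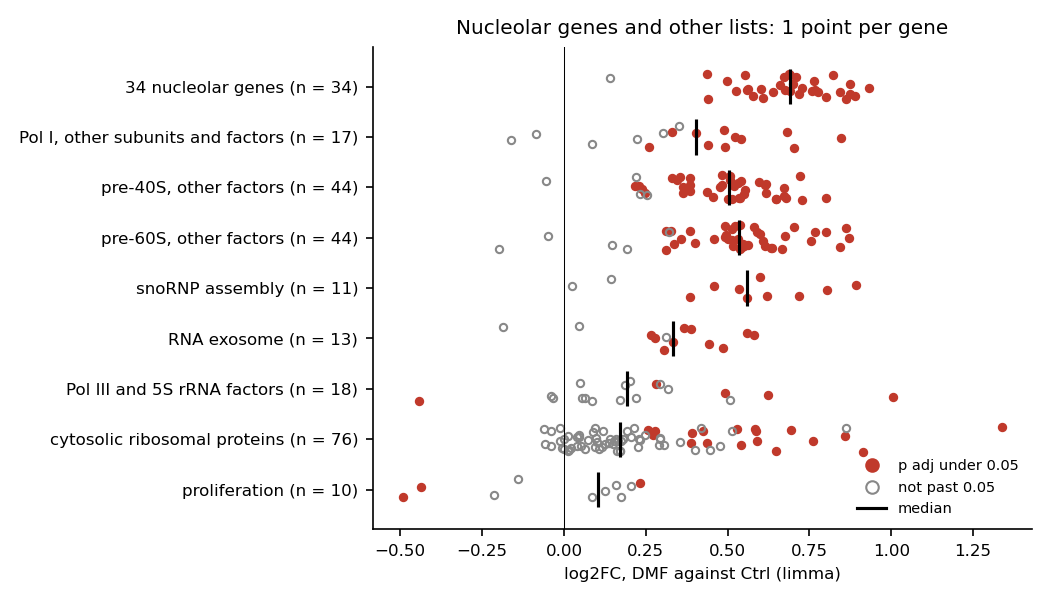
Differences between DMF and Ctrl on the log2 scale (x axis, limma) for the 34 nucleolar genes and for 8 other lists (y axis), with 1 point per gene, filled where the p adj was under 0.05, and a bar at the median. The nucleolar genes centre at 0.69 and the other assembly factors near 0.50, while ribosomal proteins centre at 0.17 and proliferation genes at 0.10.

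Genes of other steps in ribosome production were examined as well. For RNA polymerase III, which makes the 5S ribosomal RNA and transfer RNAs, 4 of 18 genes were higher and 1 was lower with DMF (9 and 1 with the replicate block). These counts stand beside 14.6% higher and 13.3% lower of all genes, or 23.7% and 21.4% with the replicate block. The 4 and the 1 of 18 with the batch term were near the background, whereas the 9 of 18 with the replicate block lay above it. Polr3d, a subunit gene, rose from 226 ± 24.9 normalized counts in Ctrl to 458 ± 85.9 with DMF (SD, n = 3), with a limma p adj of 0.00543. Maf1, the gene of a repressor of this polymerase, was the one called lower, with a log2FC of -0.44 (limma p adj = 0.00875). It was named after its value was seen. Of 76 genes of cytosolic ribosomal proteins, 18 were higher and 0 lower, with a median of 0.17, and 29 were higher with the replicate block, to be read against the same shares of all genes. These genes have many near-identical copies in the genome, and their counts are uncertain where reads were shared. Rpl23a and Rps6 had the largest log2FCs of the list, 1.34 and 0.91, at only 10.8 and 48.6 normalized counts in Ctrl. Without Ctrl replicate 1, Ctrl replicate 2, DMF replicate 1 or DMF replicate 3, the 18 became 7, 5, 0 and 3, and the 4 genes higher for RNA polymerase III became 1, 1, 0 and 1, beside 2.85%, 5.25%, 0.362% and 4.01% of all genes. Of the 20 genes that lead these and the remaining lists, 19 lost their call without DMF replicate 1 in the fit with the batch term. With the replicate block 0 of the 20 did.

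Myc, the gene of a transcription factor known to drive ribosome biogenesis in growing cells, was at 1977, 2178 and 2363 normalized counts in Ctrl, at 4514, 3297 and 4147 with DMF and at 2051, 1812 and 2408 with DMF + GSH. The DMF libraries lay above the others, with a log2FC of 0.87 (limma p adj = 0.00554, SE 0.135) against Ctrl, and the log2FC of DMF + GSH against DMF was -0.93 (limma p adj = 0.00809). Without DMF replicate 1 the limma p adj with the batch term was 0.0537 in the first comparison. The second did not pass with the batch term when DMF replicate 1 or DMF + GSH replicate 1 was left out. With the replicate block the limma p adj was 9.04e-08 in the first and 6.82e-08 in the second comparison with all 9 libraries. The first also passed there without DMF replicate 1. Of 9 upstream regulators tested, Myc, its partner Max and Eif4ebp1, the gene of a translation repressor, were higher with DMF, whereas Mxd1 and Mxd4, whose products compete with Myc for Max, were lower, 3 and 2 of 9 beside 14.6% and 13.3% of all genes. With the replicate block 4 were higher and 2 lower, beside 23.7% and 21.4%. Mxd4 fell from 866 ± 305 normalized counts in Ctrl to 260.0 ± 80.8 with DMF (limma p adj = 0.00838, log2FC -1.71, SE 0.333). It did not pass without Ctrl replicate 1 or DMF replicate 1 with the batch term, but passed in both cases with the replicate block.

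Because the members moved together, their promoters were searched for the E-box CACGTG, the letters bound by dimers of Myc and Max, which read the same on both strands. The windows were those of RefSeq on GRCm38.p6, from 250 bases before to 50 bases after the start, and 28 of the 34 members had one. The letters occurred in 6 of these 28 genes (21.4%), in 12.2% of the genes tested that have a window and in 8.09% of all genes that have one. Among the other ribosome biogenesis genes without the exosome they occurred in 17 of 97 (17.5%). The 5 members with the largest log2FC among the 6 are shown with 30 bases each, 5′ to 3′ on the strand of the gene, with the E-box in capitals.
Nop2 (chr6:125131811-125131840, forward strand): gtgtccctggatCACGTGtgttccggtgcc
Mybbp1a (chr11:72441347-72441376, forward strand): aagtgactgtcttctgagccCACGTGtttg
Ltv1 (chr10:13193092-13193121, reverse strand): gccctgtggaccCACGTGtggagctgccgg
Utp20 (chr10:88826765-88826794, reverse strand): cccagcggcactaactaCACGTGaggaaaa
Wdr43 (chr17:71616220-71616249, forward strand): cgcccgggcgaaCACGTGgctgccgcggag

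The match began 60 bases before the start in Nop2, and 40, 28, 37 and 17 bases after it in Mybbp1a, Ltv1, Utp20 and Wdr43. The log2FCs of these genes with DMF were 0.87, 0.87, 0.69, 0.69 and 0.66, while Nhp2, Polr1b and Nolc1, whose windows do not hold these letters, had log2FCs of 0.89, 0.84 and 0.82. A match of letters is a description of the window and was not tested as a binding site.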

How the data were processed

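RNA-Seq of murine Tc17 cells comprised 9 libraries of 3 groups. The authors prepared poly(A) libraries, sequenced single reads of 50 bases, aligned them to GRCm38 with STAR 2.4.0b, as their processing notes name it, and counted reads per gene of Ensembl 76 with featureCounts. Strand and multi-mapping settings of the counting are not given in the sources used here. Labels and methods differ on the extraction reagent, the RNA input and the RNA integrity. The values the authors deposited are counts divided by a size factor per library (a signal, here called normalized counts). Their table also holds their own log2 fold change, test statistic (a score) and p-values for Ctrl and DMF, which the authors computed with DESeq2 and which were not used. In each library 100% of the values were whole multiples of the value of 1 read (tolerance 0.01), so that reads could be recovered.

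Expression was compared with limma-trend (R 4.3.3, limma 3.58.1), using log2(normalized count + 1) and a model of group and preparation batch for the 9 libraries together, over the 11599 of 41388 genes with a mean of at least 10, with Benjamini-Hochberg adjustment over all genes tested. Fold changes on this scale understate the change of genes with low counts. On the recovered reads, edgeR 4.0.16 and DESeq2 1.42.0 were run as alternatives. Others changed the pseudocount to 0.5 or 4, dropped the minimum or set it to 50, rescaled the libraries by TMM or by quantiles, left out the batch, put the replicate block in its place, used robust eBayes, fitted the 6 libraries of a comparison alone, left out each library in turn (with batch or block), or applied the threshold of the study. The alternatives for the lists other than the members were added after seeing the data. The limma and edgeR tests with the batch term were tested on simulated data.

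The replicate numbers, given in the labels, paired the samples. Deviations from the group means correlated over genes with 0.447 to 0.578 in the 9 pairs of libraries with the same number in different groups, and with -0.471 to -0.0621 in the 18 pairs with different numbers. Counts with the replicate block therefore stand beside those with the batch term for the members and, with all 9 libraries, for most of the other lists.

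The members and all lists were chosen with earlier results of these data known. Values in each library, or their range within a group, are given for members picked by a rule. These are the members with the largest and the smallest log2FC and the highest level in each role group, and those past the threshold of the study. Ncl, Npm1, Fbl and the polymerase subunits were added. Of the other lists the 2 called genes with the largest log2FC and Myc are named. One gene that this rule picks is not reported here. Riok2 and Exosc6 were on the lists and were not analysed here. Positions come from GENCODE M21 on GRCm38 and promoters from RefSeq. Tables were made with pandas 2.3.3 and NumPy 2.4.6 in Python 3.11.15, figures with Matplotlib 3.10.9.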

Additional observations from a re-analysis of the deposited data

How the results depend on the processing

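In the 13 alternatives that kept all libraries of the comparison, each of the 442 values of single members for DMF against Ctrl kept its direction and its side of the threshold, as did 440 of 442 for DMF + GSH against DMF. For DMF + GSH against Ctrl the 442 stayed outside the threshold, while the direction of members near 0 varied, with 15 of 34 higher in limma with the batch term, 20 with TMM scaling, 18 with quantile normalization, 22 with edgeR (21 with the replicate block), 16 with DESeq2 and 15 in the others. The other 2 were those of Polr1c, which passed with the replicate block (limma p adj = 0.0316) and with edgeR and the replicate block (p adj = 0.0385). The replicate block changed no other call of a member. At the threshold of the study, the number of members called was 8 for DMF against Ctrl and 0 for DMF + GSH against DMF in limma with the batch term, 12 and 12 with DESeq2, without a minimum count or with the replicate block (limma and edgeR), 1 and 0 when the 6 libraries of a comparison were fitted alone, and 8 or 9 and 0 to 3 in the other alternatives with all libraries. Without 1 library in turn, the numbers at a p adj under 0.05 ranged from 0 to 33 with the batch term and from 33 to 34 with the replicate block, for DMF against Ctrl and for DMF + GSH against DMF alike, and stayed at 0 for DMF + GSH against Ctrl. With the batch term, 84 of 306 values of single members lost their call for DMF against Ctrl and 130 of 306 for DMF + GSH against DMF, and with the replicate block 0 did, and 0 were reversed. Over the same fits the median log2FC of the members ranged from 0.60 to 0.82 for DMF against Ctrl, from -0.82 to -0.59 for DMF + GSH against DMF and from -0.13 to 0.10 for DMF + GSH against Ctrl, the last of these on both sides of 0. With the replicate block it was 0.055 without DMF + GSH replicate 1 and -0.052 without DMF + GSH replicate 3. The cause of these shifts was not tested. With 3 libraries per group and the batch term, the intervals of single members against Ctrl do not exclude differences between -0.45 and 0.43 with GSH. Ctrl replicate 3, at 7671772 reads, limits the precision of genes with low counts.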

Other observations

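Genes of the p53 response, which disturbed ribosome assembly is known to activate, were examined beside the nucleolar genes. Of 9 tested, 3 were called higher with DMF than in Ctrl in limma with the batch term and 1 lower (6 and 1 with the replicate block), beside 14.6% higher and 13.3% lower of all genes (23.7% and 21.4%). Rps27l had a log2FC of 0.64, Bax, a gene of cell death, one of 0.49, and Cdkn1a, the gene of a cell cycle inhibitor, one of 0.90 (limma p adj = 0.0470), which did not pass with DESeq2 or quantile normalization. Sesn1, another p53 target, had a log2FC of -0.76 (limma p adj = 0.0258). The other 5 did not pass with the batch term. Phlda3 had the largest log2FC of the list, 1.11 (limma p adj = 0.163, SE 0.563), and Ccng1, Zmat3, Trp53 and Mdm2 were at 0.42, 0.28, 0.13 and 0.10. Without Ctrl replicate 1, Ctrl replicate 2 or DMF replicate 3, 1 was called higher and 0 lower in limma with the batch term. Without DMF replicate 1 none was called, where 3 had an unadjusted p under 0.05. Of all genes, 2.85%, 5.25%, 4.01% and 0.362% were called higher in these fits. With all 9 libraries, 4811 of the 11599 genes tested had an unadjusted p under 0.05.

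Of 10 proliferation genes, 1 was called higher with DMF, Pcna with a log2FC of 0.23, and 2 were called lower, which is near the shares of all genes, 14.6% and 13.3%. Mki67 fell from 22309 ± 1088 normalized counts in Ctrl to 15935 ± 2067 with DMF (SD, n = 3), at a log2FC of -0.49 (limma p adj = 0.00650), and Top2a, a topoisomerase gene of dividing cells, from 23197 ± 1287 to 17151 ± 1349.8, at a log2FC of -0.44 (limma p adj = 0.00933). With the replicate block 4 were higher and 4 lower, beside 23.7% and 21.4%, while with the batch term 1 gene was called without DMF replicate 3 and 0 without DMF replicate 1, where 3 had an unadjusted p under 0.05. In the latter 2 fits, 4.01% and 0.362% of all genes were called higher. The direction of the 1 gene and the shares called lower are not given here. With all 9 libraries, 4811 of the 11599 genes tested had an unadjusted p under 0.05. With DMF + GSH, Mki67 was at 22399 ± 1981 and Top2a at 21611 ± 1989.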
